A study of Mus musculus with 6 samples.

Results

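The 40 genes described here encode enzymes of the alpha-ketoglutarate (2-oxoglutarate) dependent dioxygenase superfamily. They were taken by gene symbol from the 23107 genes of a deposited RNA-seq count table, with no cut on their values. The choice was made with earlier results of these data known. They fall into 7 families: 3 TET genes, 13 histone demethylase genes, 3 JmjC hydroxylase genes, 4 HIF hydroxylase genes, 5 collagen hydroxylase genes, 9 genes of the ALKBH and FTO family, and 3 other hydroxylase genes. All 40 were present in the table, and 39 passed the filter on low counts and were tested. The exception was Tet1. The RNA came from CD11b+ Gr-1+ myeloid cells sorted out of gliomas in mice of the C57BL/6 background, with 3 libraries from tumours carrying mutant IDH1 (mIDH1) and 3 from tumours carrying wild-type IDH1 (wtIDH1). The labels give the genotype of the tumour and not of the sorted cells, and they do not say how the tumours were made, whether cells of several mice were pooled, or whether replicates came from separate mice. P-values here are therefore set against library-to-library spread alone, part of which may be technical.

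These enzymes use iron, oxygen and 2-oxoglutarate to hydroxylate or demethylate their substrates and release succinate and carbon dioxide. Their substrates include methylated DNA, methylated histones, methylated RNA, the hypoxia-inducible factors (HIF) and collagen. Mutant IDH1 makes 2-hydroxyglutarate, a structural relative of 2-oxoglutarate that inhibits several of these enzymes. A transcript level is not a measure of enzyme activity, and the comparison asks only how the mRNA of these genes differed between the tumour genotypes.

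In cells from mIDH1 tumours 3 of the 39 tested genes fell and none rose. The 3 were Kdm6b, a histone demethylase induced in activated macrophages, P4ha1, a catalytic subunit of collagen prolyl hydroxylase, and Plod3, a lysyl hydroxylase. A gene was called when its adjusted p in edgeR's quasi-likelihood test was below 0.05, with Benjamini-Hochberg adjustment over the 12950 genes tested. Of all genes tested 8.17% were called, 5.39% as lower and 2.78% as higher, so the 7.69% of dioxygenase genes that fell is near the background. Without mIDH1 replicate 2, wtIDH1 replicate 2 or wtIDH1 replicate 3 no dioxygenase gene fell in edgeR's test. Over all genes 360 rose and 698 fell, and with library totals alone 486 rose and 593 fell. At an unadjusted p under 0.05, 10 dioxygenase genes (25.6%) were lower and none was higher, against 22.2% of all genes tested, 12.1% lower and 10.1% higher. No dioxygenase gene was called higher by edgeR, DESeq2 or limma voom. Of the 39, 26 had a negative log2 fold change and 13 a positive one, with a median of -0.33. Over all genes tested the log2 fold change was negative for 46.6% and the median was 0.06. In 14 of the 39 genes every mIDH1 library lay below every wtIDH1 library, against 14.9% of all genes tested, and in 2 every mIDH1 library lay above, against 14.0%. Together these 16 were 41.0% of the dioxygenase genes, against 28.9% of all genes tested.

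**Figure D1:**
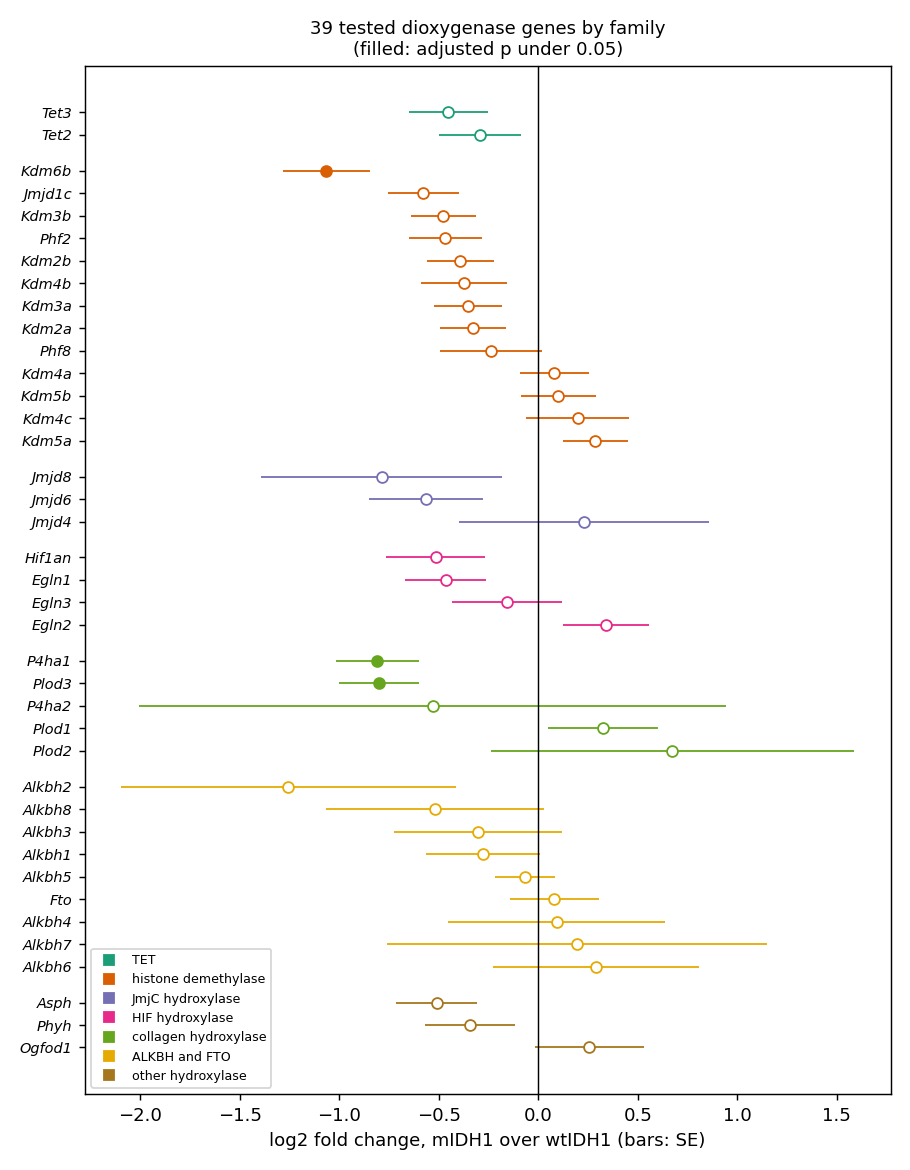
Log2 fold change (mIDH1 over wtIDH1, horizontal axis) of the 39 tested dioxygenase genes, grouped and coloured by family, with bars for the standard error. Filled points are the 3 genes that fell (Kdm6b, P4ha1 and Plod3), and 26 of the 39 points lie below 0.

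The libraries held between 19728205 and 35093265 counts. In the mIDH1 libraries 3 counts corresponded to 0.0861, 0.0931 and 0.143 CPM (counts scaled to library size), and in the wtIDH1 libraries to 0.139, 0.114 and 0.151 CPM, which is the level that a count of 0 still allows by counting error alone. All CPM here were scaled by TMM factors, which ranged from 0.951 to 1.07. Itgam, which encodes CD11b, was at 2224, 1832 and 2161 CPM in mIDH1 libraries and 1780, 1843 and 2058 CPM in wtIDH1 libraries. Ly6c2, which encodes a form of the Ly6C antigen that Gr-1 antibodies can bind, fell and was at 46.9, 54.3 and 33.8 CPM in mIDH1 libraries and 120, 215 and 121 CPM in wtIDH1 libraries. Of the markers of cells that the Gr-1 gate can hold, 3 of 9 tested neutrophil markers rose, with a summed level of 300.8 to 353 CPM in mIDH1 and 89.8 to 145 CPM in wtIDH1. Of 6 monocyte markers 2 fell (summed 1012 to 3633 CPM in mIDH1 and 1202 to 2226 CPM in wtIDH1), and 5 of 9 macrophage markers rose (summed 6472 to 14179 CPM in mIDH1 and 4283 to 5164 CPM in wtIDH1). No marker of these 3 lists was at 0 in all libraries, but S100a8, an abundant transcript of neutrophils, was at no more than 11.3 CPM in any library. Markers of glioma and neural cells summed to 88.5 to 94.6 CPM in mIDH1 and 84.6 to 93.1 CPM in wtIDH1, with 1 of 5 tested higher. Most of each sum was Mbp, at 67.4 to 83.2 CPM in mIDH1 and 79.2 to 84.0 CPM in wtIDH1. The marker that rose was Sox2, at 0.546, 7.30 and 4.19 CPM in mIDH1 libraries and 0, 0.0759 and 0.151 CPM in wtIDH1 libraries. Nes was at 9.27, 9.35 and 8.28 CPM in mIDH1 libraries and 2.59, 3.72 and 2.42 CPM in wtIDH1 libraries, without overlap. Its log2 fold change of 1.62 did not pass (adjusted p = 0.0918, edgeR). That of Gfap (-2.09), for which the groups overlapped, did not pass either. Of 6 T and NK cell markers 1 rose (summed 264 to 481 CPM in mIDH1 and 180 to 321 CPM in wtIDH1). No marker of microglia, B cells, dendritic cells, or endothelial cells and pericytes passed edgeR's test. In bulk RNA fewer cells of a type and less RNA per cell cannot be told apart, and the part of these marker changes in the values below was not tested.

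The level of the dioxygenase genes was compared between genes per kilobase of exon, using the union of the annotated exons of each gene. Kdm6b had the highest mean over all 6 libraries, at 73.4 CPM per kilobase (99.4 in wtIDH1 and 47.5 in mIDH1 libraries). Alkbh5, an RNA demethylase gene, followed with a mean over all 6 libraries of 51.9 CPM per kilobase, then P4ha1 with 39.0 and Plod3 with 32.8 CPM per kilobase. The 3 genes that fell were thus among the 4 with the highest level per kilobase. In mIDH1 libraries alone Alkbh5, at 50.8 CPM per kilobase, lay above Kdm6b. At the other end were Alkbh8, Plod2, P4ha2 and Tet1, with means over all 6 libraries of 0.752, 0.650, 0.164 and 0.0294 CPM per kilobase. Replicates of a gene differed by a median coefficient of variation of 17.4% in mIDH1 and 16.2% in wtIDH1 over the 39 genes. Neighbours in the order, such as Tet2 and Tet3 at 12.6 and 11.7 CPM per kilobase, lay within that spread.

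**Figure D2:**
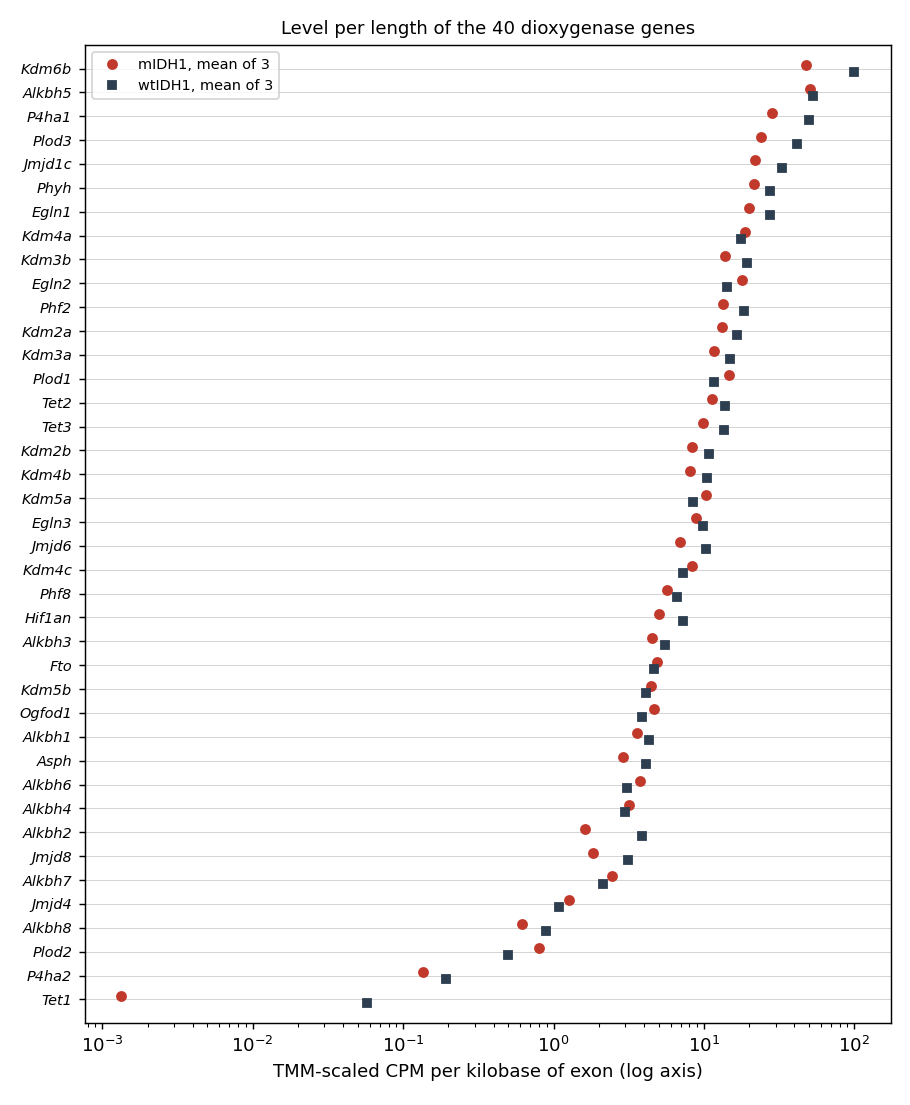
Mean level of each of the 40 dioxygenase genes in CPM per kilobase of exon (log axis), in mIDH1 (circles) and wtIDH1 (squares) libraries, ordered by the mean over all 6 libraries. Kdm6b, Alkbh5, P4ha1 and Plod3 have the highest means, and P4ha2 and Tet1 the lowest.

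The TET enzymes oxidise methylcytosine in DNA and so start its removal. Tet2 is the family member whose loss of function is frequent in myeloid malignancy in humans. Tet3 was at 197, 178 and 120 CPM in mIDH1 libraries and 210, 216 and 251 CPM in wtIDH1 libraries. All 3 mIDH1 libraries were below all 3 wtIDH1 libraries, but the log2 fold change of -0.45 ± 0.20 (SE) did not pass (adjusted p = 0.198, edgeR). Tet2 was at 217, 218 and 138 CPM in mIDH1 libraries and 194, 248 and 260.0 CPM in wtIDH1 libraries, and the groups overlapped (log2 fold change -0.29, adjusted p = 0.447, edgeR). In both genes mIDH1 replicate 3 was the lowest library. Tet1 had 0, 2 and 0 counts in mIDH1 libraries and 0, 25 and 34 counts in wtIDH1 libraries. In 4 of the 6 libraries it was thus at or below the 3 counts that a count of 0 allows. No TET gene was called by edgeR, DESeq2 or limma voom, and 1 of the 2 tested had an unadjusted p under 0.05.

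The JmjC histone demethylases remove methyl groups from lysines of histone tails. Of the 13 genes 1 fell (7.69%, against 5.39% of all genes tested). It was Kdm6b, which acts on trimethylated lysine 27 of histone H3, the mark of Polycomb repression. Kdm6b (chromosome 11, 69398508 to 69413675, GRCm38) was at 443, 294 and 254 CPM in mIDH1 libraries and 578, 703 and 792 CPM in wtIDH1 libraries. The groups did not overlap, and mIDH1 replicate 1 came closest to the wtIDH1 libraries. The log2 fold change was -1.06 ± 0.22 (SE, adjusted p = 0.0111, edgeR), and the gene passed in 12 of 15 other settings. Without mIDH1 replicate 2, wtIDH1 replicate 2 or wtIDH1 replicate 3 its adjusted p was 0.0578, 0.0609 or 0.0644 (edgeR), with log2 fold changes of -0.99, -1.06 and -0.96. Of its exonic length 4.11% is shared with the antisense gene Kdm6bos.

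Jmjd1c and Kdm3b, relatives of the lysine 9 demethylase Kdm3a, had the next most negative log2 fold changes of the histone demethylase genes. Jmjd1c was at 366, 446 and 364 CPM in mIDH1 libraries and 488, 566 and 701 CPM in wtIDH1 libraries, so the groups did not overlap. Its log2 fold change was -0.58 ± 0.18 (SE) with an adjusted p of 0.0701 by edgeR, while DESeq2 called it lower (adjusted p = 0.0236). Kdm3b averaged 196 ± 21.4 CPM in mIDH1 and 272 ± 17.8 CPM in wtIDH1 (SD, n = 3 each), also without overlap (log2 fold change -0.48, adjusted p = 0.0937, edgeR). Of the exonic length of Kdm3b 24.6% is shared with Gm26538 on the other strand, and reads there cannot be told apart. Kdm3a averaged 96.1 CPM in mIDH1 and 123 CPM in wtIDH1, with a log2 fold change of -0.35. None of these 3 genes passed edgeR's test.

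Kdm2a and Kdm2b, demethylases of lysine 36 whose CXXC domain binds unmethylated CpG islands, had log2 fold changes of -0.33 and -0.39. Phf2 and Phf8, which carry a PHD finger beside the JmjC domain, had -0.47 and -0.24. Within the Kdm4 group, which acts on trimethylated lysine 9, Kdm4b had a log2 fold change of -0.37, and Kdm4a and Kdm4c had 0.08 and 0.20. Kdm5a and Kdm5b, demethylases of the promoter mark at lysine 4, had 0.29 and 0.10. Kdm5a was 1 of the 2 dioxygenase genes in which every mIDH1 library lay above every wtIDH1 library, with means of 145 ± 8.51 CPM in mIDH1 and 119 ± 12.6 CPM in wtIDH1 (SD, n = 3 each; adjusted p = 0.342, edgeR). In all, the groups did not overlap for 9 of the 13 genes (69.2%), 8 of them lower in mIDH1, against 28.9% of all genes tested, 14.9% lower. The largest adjusted p among the 8, by edgeR, was that of Kdm4b, at 0.344.

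**Figure D3:**
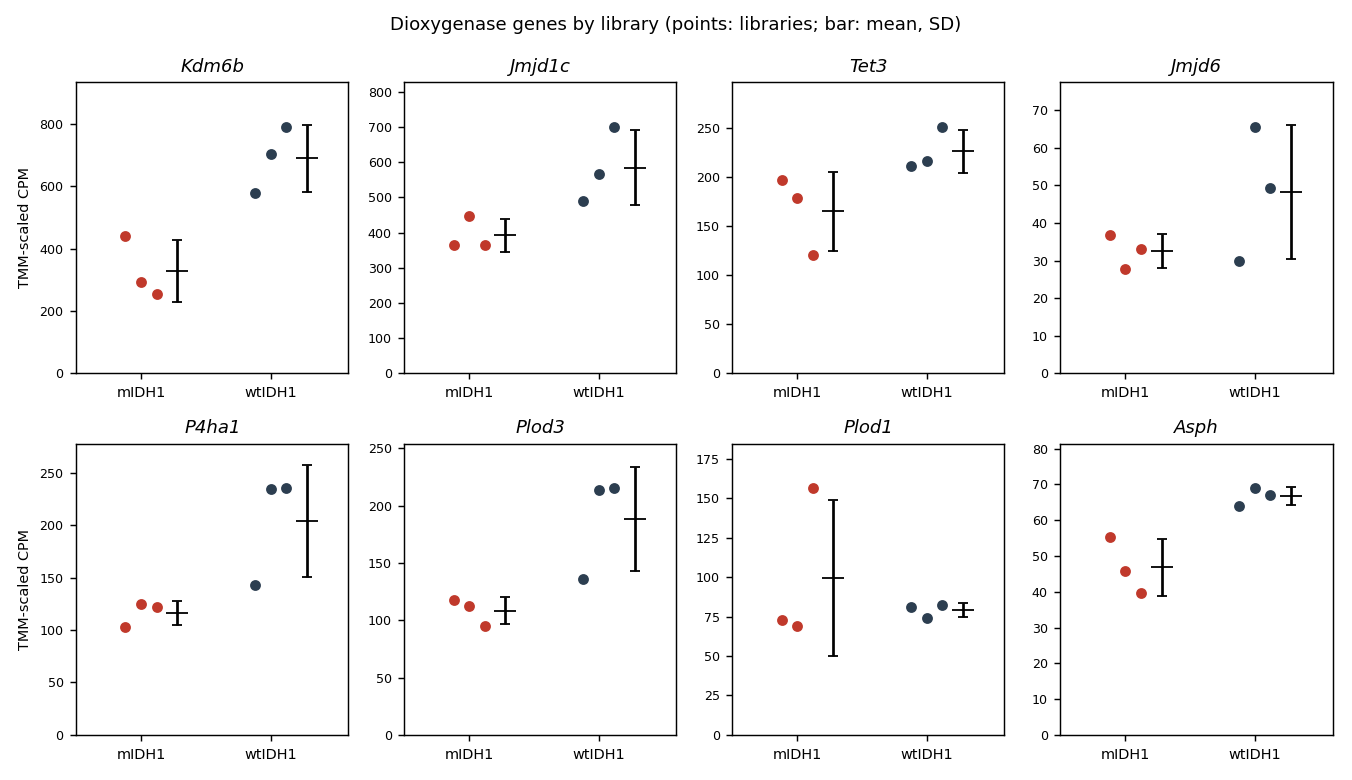
CPM of 8 dioxygenase genes in each library (points), with the mean and SD of each group (bars), mIDH1 left of wtIDH1, on linear axes that start at 0. The groups do not overlap for Kdm6b, Jmjd1c, Tet3, P4ha1, Plod3 and Asph, and they overlap for Jmjd6 and for Plod1, where mIDH1 replicate 3 stands above the other 5 libraries.

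Jmjd4, Jmjd6 and Jmjd8 share the JmjC fold but are hydroxylases or, for Jmjd8, a protein of the secretory pathway. Jmjd6, which hydroxylates lysines of splicing factors, was at 36.8, 27.9 and 33.2 CPM in mIDH1 libraries and 29.9, 65.6 and 49.3 CPM in wtIDH1 libraries. The groups overlapped through wtIDH1 replicate 1 (log2 fold change -0.56 ± 0.28 SE, adjusted p = 0.271, edgeR). Jmjd8 averaged 5.02 CPM in mIDH1 and 8.63 CPM in wtIDH1, and Jmjd4, which hydroxylates a translation release factor, 9.03 CPM in mIDH1 and 7.71 CPM in wtIDH1. Of the exonic length of Jmjd8, 39.3% is shared with Stub1 on the other strand, so that their reads cannot be told apart there. None of the 3 genes was called by edgeR, DESeq2 or limma voom, and none had an unadjusted p under 0.05.

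The HIF hydroxylases are the oxygen sensors of the cell. Egln1, Egln2 and Egln3 hydroxylate prolines of HIF alpha subunits, which marks them for degradation through Vhl, and Hif1an hydroxylates an asparagine that blocks the binding of coactivators. Egln1 was at 54.1, 82.7 and 78.6 CPM in mIDH1 libraries and 86.7, 109 and 102 CPM in wtIDH1 libraries. The groups came close without overlapping, and the log2 fold change of -0.47 ± 0.20 (SE) did not pass (adjusted p = 0.196, edgeR). Hif1an was at 23.7, 39.2 and 37.1 CPM in mIDH1 libraries and 53.4, 45.8 and 43.8 CPM in wtIDH1 libraries (log2 fold change -0.51, adjusted p = 0.247, edgeR). In both genes mIDH1 replicate 1 was the lowest library. Egln2 had the opposite order, at 51.5, 48.8 and 50.7 CPM in mIDH1 libraries and 47.6, 35.7 and 36.0 CPM in wtIDH1 libraries (log2 fold change 0.34, adjusted p = 0.394, edgeR). Egln3, itself a known HIF target, was at 23.4 ± 5.10 CPM in mIDH1 and 26.1 ± 3.63 CPM in wtIDH1 (SD, n = 3 each), and the groups overlapped. No HIF hydroxylase gene was called by edgeR, DESeq2 or limma voom, and 1 of the 4 had an unadjusted p under 0.05.

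Further genes of the HIF pathway were taken from a list of 35, of which 32 were tested: HIF subunits, the machinery that degrades them, and known HIF targets. Of these 4 fell and 1 rose (15.6%, against 8.17% of all genes tested). The median log2 fold change was -0.07, against 0.06 over all genes tested. Vegfa, a growth factor gene, fell (log2 fold change -2.77 ± 0.31 SE, adjusted p = 0.000331, edgeR), as did the hexokinase gene Hk2 (-0.99) and the glucose transporter gene Slc2a1 (-0.61). Hif1a, named because it completes this count and chosen after its values were seen, was at 887, 1057 and 845 CPM in mIDH1 libraries and 1250, 1383 and 1550 CPM in wtIDH1 libraries (log2 fold change -0.59 ± 0.17 SE, adjusted p = 0.0486, edgeR). Ndrg1, a target induced by hypoxia, rose (0.99 ± 0.24 SE, adjusted p = 0.0264, edgeR), at 263, 221 and 125 CPM in mIDH1 libraries and 88.3, 110 and 109 CPM in wtIDH1 libraries. Vegfa and Hk2 passed in all 15 other settings. Slc2a1 and Hif1a did not pass with library totals alone (adjusted p = 0.0643 and 0.0683, edgeR), and Hif1a did not pass without any 1 of the 6 libraries, where its adjusted p ranged from 0.0666 to 0.194. Slc2a1 passed without wtIDH1 replicate 1 but not without any other library, with an adjusted p of up to 0.186. Ndrg1 passed without mIDH1 replicate 3 only, and without any other library its adjusted p lay between 0.0723 and 0.103 (edgeR).

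**Figure D4:**
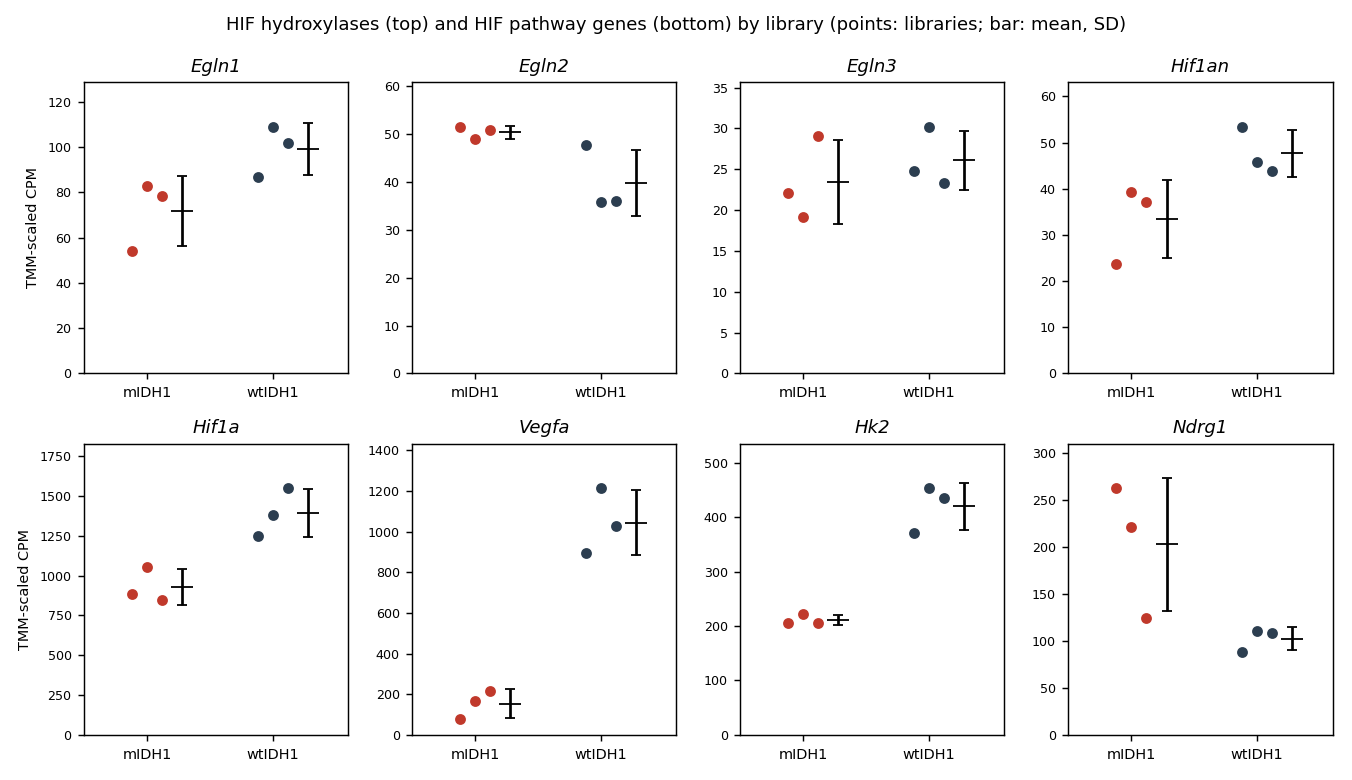
CPM of the 4 HIF hydroxylase genes (top) and of 4 HIF pathway genes (bottom) in each library (points), with the mean and SD of each group (bars), mIDH1 left of wtIDH1, on linear axes that start at 0. Egln1, Hif1an, Hif1a, Vegfa and Hk2 are lower in every mIDH1 library than in every wtIDH1 library, Egln2 and Ndrg1 are higher, and Egln3 overlaps.

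Collagen hydroxylases act in the endoplasmic reticulum. P4ha1 and P4ha2 are catalytic subunits of the prolyl hydroxylase that stabilises the collagen triple helix, and Plod1, Plod2 and Plod3 hydroxylate collagen lysines. Macrophages use the same chemistry for proteins with collagen-like stalks such as C1q. C1qa, C1qb and C1qc had log2 fold changes of 0.97, 0.93 and 0.84, of which that of C1qb passed (adjusted p = 0.0319, edgeR). Of the 5 collagen hydroxylase genes 2 fell, P4ha1 and Plod3. Of all genes tested 5.39% fell, but 5 genes are too few to compare as a share. P4ha1 (chromosome 10, 59323296 to 59373304) was at 103, 125 and 122 CPM in mIDH1 libraries and 143, 234 and 235 CPM in wtIDH1 libraries. The groups did not overlap, and wtIDH1 replicate 1 lay closest to the mIDH1 libraries. Its log2 fold change was -0.81 ± 0.21 (SE, adjusted p = 0.0315, edgeR). Plod3 (chromosome 5, 136987019 to 136996648) was at 117, 112 and 95.3 CPM in mIDH1 libraries and 136, 213 and 215 CPM in wtIDH1 libraries, with a log2 fold change of -0.80 ± 0.20 (SE, adjusted p = 0.0298, edgeR). Here too wtIDH1 replicate 1 was the lowest wtIDH1 library.

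Both calls depended on single libraries. For P4ha1 the adjusted p was 0.0778 without mIDH1 replicate 1, 0.0802 without mIDH1 replicate 2, 0.156 without wtIDH1 replicate 2 and 0.145 without wtIDH1 replicate 3 (edgeR). For Plod3 it was 0.0841 without mIDH1 replicate 2, 0.0529 without mIDH1 replicate 3, 0.146 without wtIDH1 replicate 2 and 0.140 without wtIDH1 replicate 3 (edgeR). Their log2 fold changes without 1 library lay between -1.02 and -0.70 for P4ha1 and between -0.99 and -0.70 for Plod3. Of the exonic length of Plod3, 11.7% is shared with Znhit1 on the other strand.

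The other collagen hydroxylase genes did not pass. Plod1 was at 72.8, 69.1 and 156 CPM in mIDH1 libraries and 81.1, 74.4 and 82.2 CPM in wtIDH1 libraries. The value in mIDH1 replicate 3 stood above all others. Its log2 fold change of 0.33 turned to -0.16 once that library was left out. The macrophage marker sum was also highest there (14179 CPM in mIDH1 replicate 3, 6472 CPM in mIDH1 replicate 1 and 6819 CPM in mIDH1 replicate 2), and its part in the Plod1 value was not tested. Plod2 averaged 4.31 CPM in mIDH1 and 2.70 CPM in wtIDH1, and P4ha2 0.843 CPM in mIDH1 and 1.20 CPM in wtIDH1. Col3a1, a collagen gene from the fibroblast marker list, was at 48.2, 57.3 and 32.1 CPM in mIDH1 libraries and 3.28, 2.12 and 1.06 CPM in wtIDH1 libraries (log2 fold change 4.41, adjusted p = 0.000148, edgeR). Col1a1 and Col1a2 were at no more than 3.28 CPM in any library, and Dcn and Lum at no more than 1.82 CPM. Pdgfra, a receptor gene of the same list, was at 1.21, 2.61 and 5.42 CPM in mIDH1 libraries and 0.231, 0.417 and 0 CPM in wtIDH1 libraries, without overlap (fitted log2 fold change 3.78, adjusted p = 0.134, edgeR). Of the 6 fibroblast markers 4 were tested and 1 rose, with a summed level of 40.8 to 62.3 CPM in mIDH1 and 2.92 to 4.33 CPM in wtIDH1.

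The promoters of the collagen hydroxylase genes are shown with the core letters of the hypoxia response element, the DNA sequence that HIF binds. A part of HIF in the levels of these genes was not tested. Each window runs from 250 bases before to 50 bases after the annotated start, 5′ to 3′ on the strand of the gene, from RefSeq on GRCm38.p6. Capitals mark every ACGTG and GCGTG on either strand, so that CACGT and CACGC are their reverse complements, and neighbouring matches can overlap. Of the 5 genes 4 had a window in the table used, and Kdm6b had none. The windows are P4ha1 at chr10:59323046-59323345 (plus strand), P4ha2 at chr11:54100674-54100973 (plus strand), Plod1 at chr4:147936727-147937026 (minus strand) and Plod3 at chr5:136986769-136987068 (plus strand).
P4ha1: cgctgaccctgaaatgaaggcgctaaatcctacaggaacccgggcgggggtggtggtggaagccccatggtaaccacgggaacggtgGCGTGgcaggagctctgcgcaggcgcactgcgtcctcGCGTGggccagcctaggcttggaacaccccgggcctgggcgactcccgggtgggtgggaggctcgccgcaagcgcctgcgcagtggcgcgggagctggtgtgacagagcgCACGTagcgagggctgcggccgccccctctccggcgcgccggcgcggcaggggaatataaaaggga
P4ha2: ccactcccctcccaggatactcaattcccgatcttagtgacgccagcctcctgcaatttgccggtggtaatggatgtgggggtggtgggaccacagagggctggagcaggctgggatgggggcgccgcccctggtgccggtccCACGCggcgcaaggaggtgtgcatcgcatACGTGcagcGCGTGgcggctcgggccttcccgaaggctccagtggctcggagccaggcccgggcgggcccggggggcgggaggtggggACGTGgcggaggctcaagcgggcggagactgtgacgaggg
Plod1: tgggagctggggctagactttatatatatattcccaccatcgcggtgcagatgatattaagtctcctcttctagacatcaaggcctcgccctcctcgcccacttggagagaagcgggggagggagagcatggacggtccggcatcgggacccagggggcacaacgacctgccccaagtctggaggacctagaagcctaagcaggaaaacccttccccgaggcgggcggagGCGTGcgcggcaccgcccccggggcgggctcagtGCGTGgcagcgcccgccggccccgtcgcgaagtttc
Plod3: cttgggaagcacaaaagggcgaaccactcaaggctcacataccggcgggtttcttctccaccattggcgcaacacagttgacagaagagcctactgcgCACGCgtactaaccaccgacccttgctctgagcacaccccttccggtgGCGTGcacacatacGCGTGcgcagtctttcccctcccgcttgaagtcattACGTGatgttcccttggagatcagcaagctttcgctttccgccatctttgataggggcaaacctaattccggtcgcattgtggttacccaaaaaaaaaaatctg
P4ha1 held 3 matches, P4ha2 4, Plod1 2 and Plod3 4. P4ha2 and Plod1, which were not called, held the letters as well. Of the 33 dioxygenase genes with at least 1 window, 23 had a match in some window, and 27 of their 43 windows (62.8%) held 1, against 43.8% of all 32851 promoter windows (19.6% for ACGTG and 32.4% for GCGTG). By family, a match was held by 1 of 3 TET windows, 9 of 15 of histone demethylases, 3 of 3 of JmjC hydroxylases, 4 of 5 of HIF hydroxylases, 4 of 4 of collagen hydroxylases, 5 of 11 of ALKBH and FTO genes and 1 of 2 of the other hydroxylases. Windows of the same gene were counted separately and can overlap, as for Kdm2b, and windows were not matched for base composition. A match describes the letters in this window and does not show binding.

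The ALKBH family removes alkyl groups from nucleic acids, apart from members with protein substrates. Alkbh5 and Fto, the demethylases of methyladenosine in RNA, were close to equal between the groups. Alkbh5 was at 304, 317 and 291 CPM in mIDH1 libraries and 307, 315 and 332 CPM in wtIDH1 libraries. Its log2 fold change of -0.07 ± 0.15 (SE, adjusted p = 0.854, edgeR) was smaller than its error, and it changed sign to 0.01 with library totals alone. Fto averaged 63.8 ± 14.0 CPM in mIDH1 and 60.3 ± 9.82 CPM in wtIDH1 (SD, n = 3 each), with a log2 fold change of 0.08.

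Alkbh2, which repairs alkylated DNA, had the most negative log2 fold change of the 39 genes with all libraries, but also a low level. It was at 1.38, 0.931 and 3.14 CPM in mIDH1 libraries and 4.71, 3.07 and 5.19 CPM in wtIDH1 libraries. The groups overlapped, and the log2 fold change of -1.25 ± 0.84 (SE) did not pass (adjusted p = 0.425, edgeR). Without 1 library its log2 fold change lay between -1.90 (without mIDH1 replicate 3) and -0.94 (without mIDH1 replicate 2). Without mIDH1 replicate 1 or mIDH1 replicate 2 that of Kdm6b was the more negative of the pair (-1.34 and -0.99, where Alkbh2 had -1.09 and -0.94). Of its exonic length 29.5% is shared with Usp30 on the other strand. Alkbh3, a repair enzyme of alkylated DNA and RNA, averaged 14.2 CPM in mIDH1 and 17.5 CPM in wtIDH1. Alkbh1, which acts on transfer RNA, averaged 23.5 CPM in mIDH1 and 28.5 CPM in wtIDH1. Alkbh8, which modifies the wobble position of transfer RNA, averaged 5.40 CPM in mIDH1 and 7.74 CPM in wtIDH1. The mitochondrial Alkbh7 was at 1.78, 1.09 and 4.71 CPM in mIDH1 libraries and 1.99, 1.59 and 3.03 CPM in wtIDH1 libraries. Alkbh4 averaged 6.72 CPM in mIDH1 and 6.30 CPM in wtIDH1, and Alkbh6 11.7 CPM in mIDH1 and 9.55 CPM in wtIDH1. Alkbh6 shares 11.9% of its exonic length with Gm24757 on the same strand. No gene of the family was called by edgeR, DESeq2 or limma voom, none had an unadjusted p under 0.05, and the groups overlapped for all 9.

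Of the other hydroxylase genes, Asph encodes the hydroxylase of aspartate and asparagine in EGF-like domains. Asph was at 55.2, 45.7 and 39.5 CPM in mIDH1 libraries and 64.1, 69.0 and 67.2 CPM in wtIDH1 libraries. The groups did not overlap, and the log2 fold change was -0.51 ± 0.20 (SE, adjusted p = 0.152, edgeR). Of its exonic length 14.3% is shared with Clvs1 on the other strand. Phyh, the peroxisomal hydroxylase of phytanoyl-CoA, averaged 40.9 CPM in mIDH1 and 51.8 CPM in wtIDH1, and Ogfod1, which hydroxylates a ribosomal protein, 27.2 CPM in mIDH1 and 22.8 CPM in wtIDH1. The groups overlapped for both. None of the 3 genes was called by edgeR, DESeq2 or limma voom, and 1 had an unadjusted p under 0.05.

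**Figure D5:**
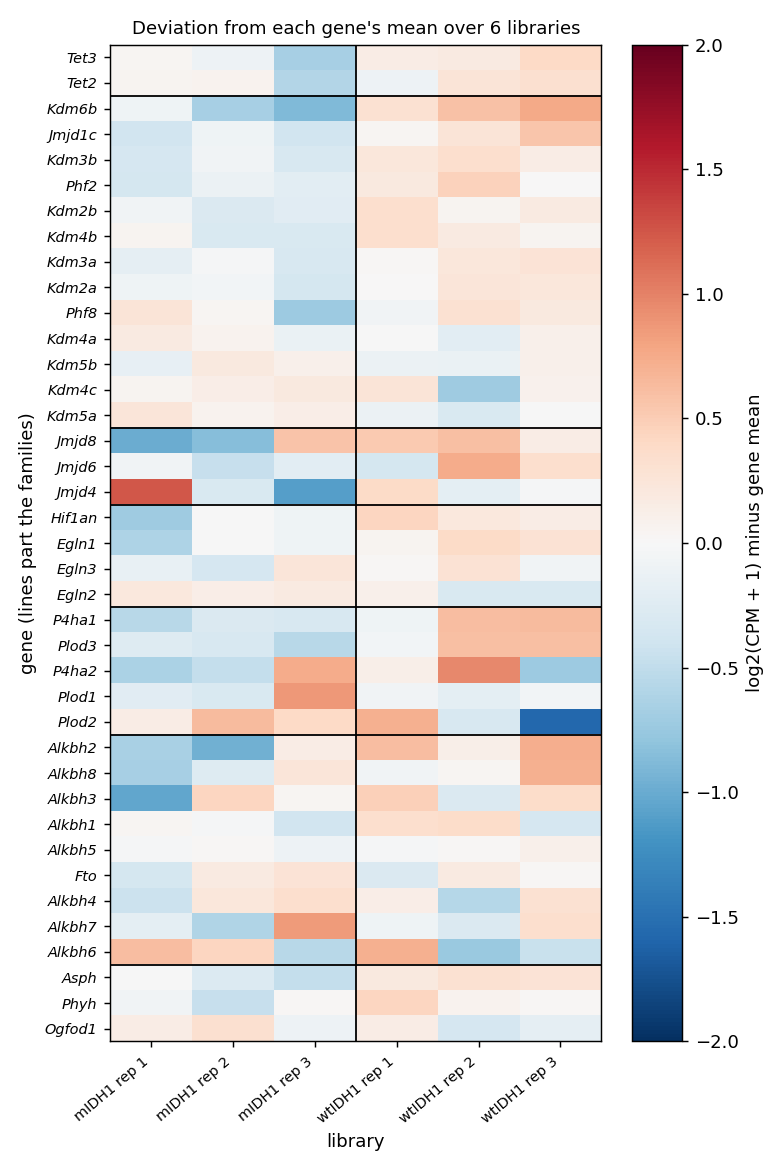
Deviation of log2(CPM + 1) from each gene's mean over the 6 libraries (colour, ending at 2 in either direction), for the 39 tested dioxygenase genes (rows, parted by family) and the libraries (columns, mIDH1 left of wtIDH1). Kdm6b, Jmjd1c, P4ha1 and Plod3 are lower in the mIDH1 columns, while rows of genes with few counts, such as Plod2 and Alkbh7, vary from library to library.

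A list of 27 further dioxygenase genes, all found in the table, gave no call by edgeR among the 20 tested, against 8.17% of all genes tested. At an unadjusted p under 0.05, 3 of the 20 differed, 1 higher and 2 lower. Over all genes tested 22.2% did, 10.1% higher and 12.1% lower. DESeq2 called Kdm5c lower, where it called 983 of 14564 genes lower, and limma voom called none. Kdm5c, an X-linked demethylase of lysine 4, averaged 152 ± 30.3 CPM in mIDH1 and 241 ± 46.1 CPM in wtIDH1 (SD, n = 3 each; log2 fold change -0.67, adjusted p = 0.0619, edgeR). Phyhd1 had a log2 fold change of -0.86, and Tyw5, which hydroxylates a base of transfer RNA, and Ogfod3 had 1.62 and 1.42. The median of the 20 log2 fold changes was 0.13, against 0.06 over all genes tested, and 6 (30%) were negative, against 46.6%.

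Of 30 genes of 2-oxoglutarate metabolism 28 were tested, and 1 rose while none fell (3.57%, against 8.17% of all genes tested). Got2, the mitochondrial aspartate aminotransferase that interconverts 2-oxoglutarate and glutamate, was at 127, 139 and 157 CPM in mIDH1 libraries and 92.6, 79.8 and 87.5 CPM in wtIDH1 libraries. The groups did not overlap (log2 fold change 0.70 ± 0.17 SE, adjusted p = 0.0243, edgeR), and its adjusted p reached 0.137 without wtIDH1 replicate 2. No gene of the list rose in edgeR's test when mIDH1 replicate 2 or a wtIDH1 library was left out, while Glul also rose without mIDH1 replicate 1 (adjusted p = 0.00571, edgeR). The glutamine synthetase gene Glul (0.78) and the succinate dehydrogenase subunit genes Sdhb (0.53) and Sdhd (0.70) had positive log2 fold changes that did not pass. At an unadjusted p under 0.05, 6 of the 28 genes differed by edgeR, 4 higher and 2 lower. Over all genes tested 22.2% did, 10.1% higher and 12.1% lower. DESeq2 called 2 genes of the list higher and none lower, where it called 715 of 14564 genes higher and 983 lower. The median log2 fold change was 0.18, against 0.06 over all genes tested.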

How the data were processed

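Deposited by the authors was a single matrix of estimated counts (genes by libraries), without scaling for depth. The submitters' processing notes name Bowtie2 2.2.1 and TopHat2 2.0.13 (alignment tools), HTSeq, Cufflinks and Cuffdiff 2.1.1, with FastQC for quality, and the build mm10. Their order and annotation are stated in no source used here. Per the labels' protocols the mRNA kit does not mark strand, and samples had high RNA integrity.

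Between 1.31 and 1.61% of values per library were not whole (tolerance 1e-09), and all were rounded. Genes were kept with filterByExpr (minimum count 10, minimum total 15), which left 12950 of 23107 genes. Libraries were scaled by TMM and compared with edgeR 4.0.16 in R 4.3.3 (glmQLFit, glmQLFTest, group as the only term, two-sided, Benjamini-Hochberg over all genes tested). DESeq2 1.42.0 and limma 3.58.1 (voom) were alternatives. The tests were tried on simulated data, where a limit on false calls was set for edgeR and limma voom but not for DESeq2. Log2 fold changes are mIDH1 minus wtIDH1. No pair of replicates was near sampling noise (chi-square over its degrees of freedom was 48.5 to 139). The labels name no batch. Floors cover counting error only.

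Gene coordinates, exonic lengths and shared exons are from GENCODE M21 (GRCm38), which may differ from the annotation the authors counted on. Promoter windows are from RefSeq (GRCm38.p6), and 33 of the 40 genes matched by symbol. The genes and lists were chosen with earlier results of these data known. All 40 genes are accounted for, with values per library for genes that passed and at least the smallest p of each family. Others given per library were chosen after their values were seen. Up to 4 genes with the smallest p are named from each other list.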

Additional observations from a re-analysis of the deposited data

How the results depend on the processing

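No dioxygenase gene rose in edgeR's test or in any of 15 alternatives. The number that fell was 3 in 7 of the 9 alternatives that kept all libraries, 4 with DESeq2, where Jmjd1c was added, and 1 with the replicate block. Leaving out 1 library at a time gave 0 to 3 that fell among the dioxygenase genes, 0 to 1 among the further dioxygenase genes, 2 to 3 that fell and 0 to 1 that rose in the HIF pathway, 0 to 2 that rose in 2-oxoglutarate metabolism, and 334 to 1033 called genes in all, where edgeR called 1058 with all libraries. DESeq2 called 1698. In the HIF pathway 2 genes fell with library totals alone, 2 with upper-quartile factors and 2 with the replicate block, where 0 rose. Among the further dioxygenase genes 1 fell without a filter and 1 with DESeq2, Kdm5c both times. In 2-oxoglutarate metabolism 2 genes rose without a filter and 2 with DESeq2, Glul being added, and 0 with the replicate block. The replicate block called 585 genes, but same-numbered libraries did not deviate together (correlations -0.03, 0.03 and -0.05), so the numbers were not taken as pairs. Of 779 log2 fold changes of named genes under the alternatives, 713 kept their direction and side of the threshold, 41 no longer passed, 8 passed newly and 17 changed sign. Every sign change was in a gene that was not called. Leaving out 1 library gave log2 fold changes of -0.0080 (without wtIDH1 replicate 2) to 0.16 for Kdm4a, -0.052 (wtIDH1 replicate 2) to 0.39 for Kdm4c, -0.46 to 0.0040 (mIDH1 replicate 3) for Phf8, -0.86 (mIDH1 replicate 1) to 0.65 for Jmjd4, -2.30 to 0.64 (wtIDH1 replicate 2) for P4ha2, -0.16 (mIDH1 replicate 3) to 0.53 for Plod1 and -0.66 to 0.031 (mIDH1 replicate 1) for Alkbh3. They were -0.16 (wtIDH1 replicate 2) to 0.32 for Alkbh4, which was also negative without mIDH1 replicate 3 (-0.08), -0.0049 (wtIDH1 replicate 2) to 0.93 for Alkbh6, -0.62 (mIDH1 replicate 3) to 0.56 for Alkbh7 and -0.047 (wtIDH1 replicate 1) to 0.25 for Fto, also negative without mIDH1 replicate 3 (-0.043). The replicate block gave -0.16 for Jmjd4 and -0.022 for Alkbh7, limma voom -0.14 for Alkbh7, and library totals alone 0.0096 for Alkbh5. The cause was not tested. With few counts, as for Tet1, P4ha2, Plod2 and Alkbh7, depth limits what can be seen.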
